A study of Mus musculus with 6 samples.

Results

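Cajal-Retzius cells are described here through 9 genes that mark them: Reln, Ndnf, Trp73, Lhx1, Lhx5, Ebf2, Ebf3, Nr2f2 and Calb2. Their rows were taken by gene name from a table of 55367 rows, and all 9 were present. The RNA came from cortical cells of mouse pups at postnatal day 1, kept in culture for 2 days, from the C57BL/6J strain. Libraries were made from 3 WT and 3 Fmr1-KO samples, and every change below is given for Fmr1-KO relative to WT. Fmr1-KO mice lack FMRP, the RNA-binding protein whose loss causes fragile X syndrome, in every cell, so a difference cannot be assigned to Cajal-Retzius cells themselves. According to the study's methods, ACSA2+ astrocytes and myelin were removed before plating. The study calls its triplicate samples independently derived, but the labels name no litter, culture or sex. P values therefore measure the spread between these libraries, which may be technical.

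Cajal-Retzius cells are among the earliest neurons of the cortex and lie in its outermost layer, the marginal zone. They arise at the borders of the cortical sheet, such as the cortical hem and the septum, spread over its surface and largely die after birth. They secrete reelin, a large glycoprotein that guides the layering of migrating neurons through the receptors VLDLR and APOER2 and the adaptor DAB1. Several of the 9 genes are not restricted to these cells: Reln, Ndnf, Calb2 and Nr2f2 are also used by classes of GABAergic interneurons, Trp73 by ependymal and choroid plexus cells, and the EBF genes by vascular and connective tissue cells. In bulk RNA, fewer cells of a type and less RNA per cell cannot be told apart.

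Promoter sequences are shown for the members that fell and had an entry, and for both starts of Trp73, a member that did not fall. They are from RefSeq on GRCm38.p6, which held 6 windows for 5 of the 9 genes. Each run is the 250 bases before a transcription start, 5′ to 3′ on the strand of the gene, and capitals mark CG dinucleotides. All 4 genes lie on the minus strand. The lines are Reln at chr5:22344706-22344955, Ebf3 at chr7:137314446-137314695, Lhx1 at chr11:84525535-84525784, the outer start of Trp73 at chr4:154139876-154140125 and its inner start at chr4:154097174-154097423.
Reln: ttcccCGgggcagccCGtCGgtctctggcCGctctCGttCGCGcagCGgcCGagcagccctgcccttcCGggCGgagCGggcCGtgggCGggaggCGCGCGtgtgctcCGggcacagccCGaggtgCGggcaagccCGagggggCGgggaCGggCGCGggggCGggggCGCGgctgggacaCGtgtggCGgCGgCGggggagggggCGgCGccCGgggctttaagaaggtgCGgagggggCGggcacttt
Ebf3: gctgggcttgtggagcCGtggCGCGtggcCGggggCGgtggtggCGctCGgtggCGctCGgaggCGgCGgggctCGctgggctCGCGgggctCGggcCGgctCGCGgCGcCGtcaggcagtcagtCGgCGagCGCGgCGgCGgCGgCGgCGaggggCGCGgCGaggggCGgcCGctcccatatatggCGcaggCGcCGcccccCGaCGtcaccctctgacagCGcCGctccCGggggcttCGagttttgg
Lhx1: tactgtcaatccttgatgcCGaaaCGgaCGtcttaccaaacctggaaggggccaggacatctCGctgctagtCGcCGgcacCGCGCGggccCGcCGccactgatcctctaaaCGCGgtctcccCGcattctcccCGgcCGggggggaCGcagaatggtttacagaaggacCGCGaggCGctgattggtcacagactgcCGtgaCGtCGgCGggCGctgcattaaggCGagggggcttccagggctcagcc
Trp73 outer start: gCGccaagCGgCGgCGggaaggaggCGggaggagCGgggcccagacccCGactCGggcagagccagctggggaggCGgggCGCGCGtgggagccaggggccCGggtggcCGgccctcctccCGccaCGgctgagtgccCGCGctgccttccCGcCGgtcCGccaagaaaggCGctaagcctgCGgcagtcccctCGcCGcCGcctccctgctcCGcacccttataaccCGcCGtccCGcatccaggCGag
Trp73 inner start: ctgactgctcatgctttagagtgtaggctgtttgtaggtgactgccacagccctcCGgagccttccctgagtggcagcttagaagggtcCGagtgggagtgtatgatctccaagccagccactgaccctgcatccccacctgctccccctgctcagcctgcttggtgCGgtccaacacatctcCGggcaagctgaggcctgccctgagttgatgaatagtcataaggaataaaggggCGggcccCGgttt

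The windows of Reln and Ebf3 were both 80.0% G or C, with 37 and 43 CG dinucleotides, against medians of 52.4% and 6 over 32851 windows. The Lhx1 window had 64.8% and 26 CG dinucleotides. The outer Trp73 window had 77.2% and 31 CG dinucleotides, and the inner had 58.4% and 6. The inner start, 42702 bases from the outer, gives the N-terminally truncated form of p73 that is known from Cajal-Retzius cells. Counts were summed by gene name and do not separate the forms. Because several members encode transcription factors, TCCC and GGGA parted by any 2 bases (the EBF palindrome), TAATTA (the LIM homeodomain core) and AGGTCA (the nuclear receptor core) were searched on both strands. None was found in the 6 windows, which include that of Nr2f2. In all, 0.779%, 4.84% and 14.02% of windows of this length hold them.

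Of the 9 genes, 8 had enough counts to be tested. With P values from edgeR (quasi-likelihood, Benjamini-Hochberg over 16976 genes), 6 of the 8 fell and 2 rose in Fmr1-KO at an adjusted P under 0.05. Over all genes tested, 21.9% were called lower and 20.7% higher. Reln, Ndnf, Ebf3, Lhx1 and Lhx5 had log2 fold-changes below -1, and 2.06% of all genes tested were called with a decrease of that size. Calb2, Nr2f2 and Trp73 differed by less than 0.25. The median log2 fold-change was -1.21 for the 8 genes and 0.01 for all genes. Lhx1 and Lhx5 passed the filter on low counts only through their WT libraries, so this count and median are descriptions. In 6 of the 8 every Fmr1-KO library lay below every WT library, and in 1, Nr2f2, above; over all genes these shares were 26.3% and 25.4%. DESeq2 called 5 of the 8 lower and 0 higher, against 19.7% and 16.5% of the genes it adjusted, and a test for a fold change above 1.2 also called 5 lower and 0 higher, against 7.89% and 5.2%. Totals ran from 30348556 to 35126207 counts per library. Fmr1, the targeted gene, had 3656 to 4113 counts in WT and 1761 to 1972 in Fmr1-KO, a log2 fold-change of -0.98, and its genotypes did not overlap. Its transcript remained at 50.6% of the WT level.

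**Figure D1:**
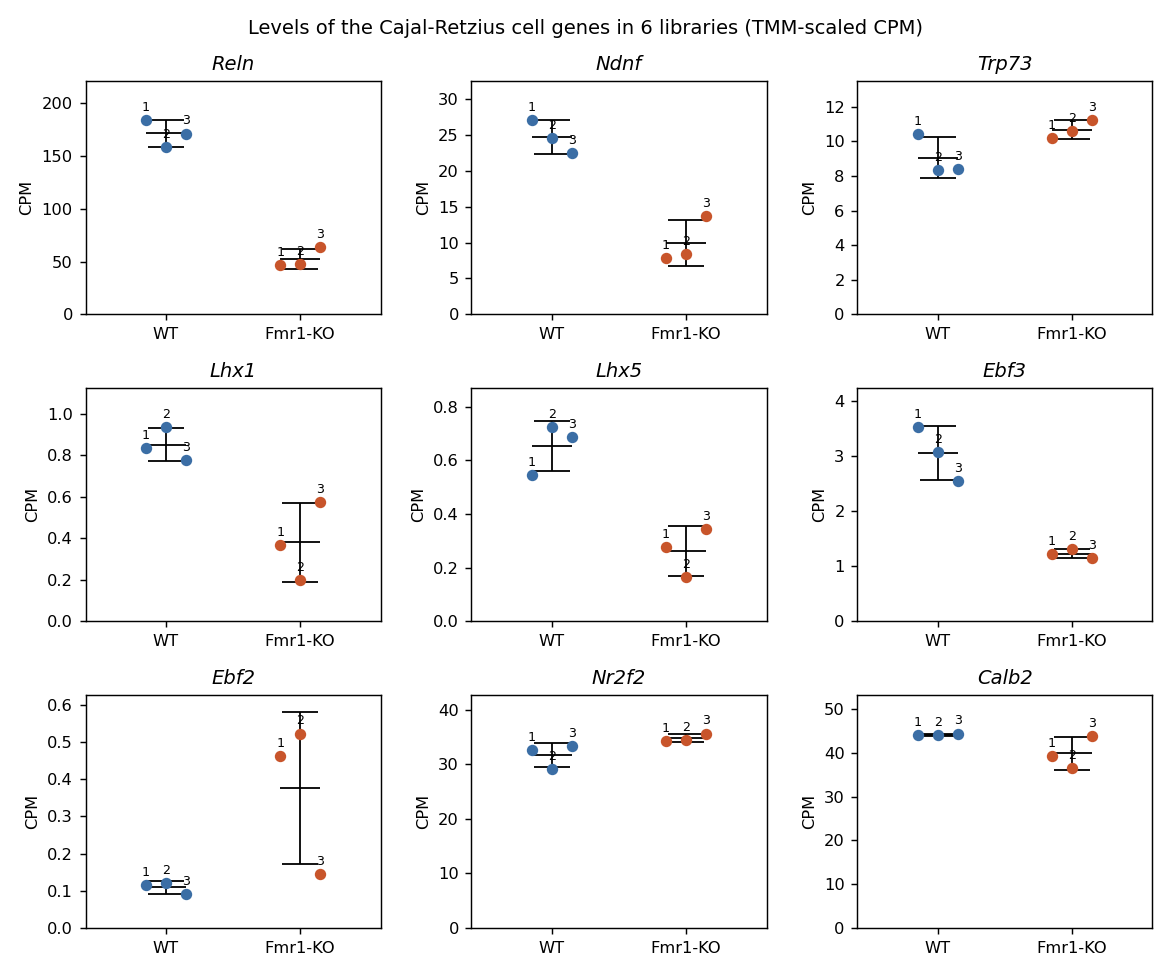
Level of each of the 9 genes in CPM (counts scaled to library size with TMM), with 1 point per library numbered by replicate, and the mean and SD (n = 3) in black; each axis starts at 0. Reln was between 158.6 and 184.2 CPM in WT and between 46.96 and 63.81 CPM in Fmr1-KO, while the genotypes of Trp73 overlapped.

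Reln encodes reelin, the secreted protein that defines these cells. It lies on the minus strand of chromosome 5 from 21884454 to 22344702 in GRCm38. Its counts were 6404, 5244 and 5715 in WT replicates 1, 2 and 3 and 1527, 1456 and 2220 in Fmr1-KO replicates 1, 2 and 3. Every Fmr1-KO library was far below every WT library, and replicate 3 was the highest of the Fmr1-KO libraries. In CPM, scaled between libraries by edgeR's TMM, the level was 171.4 ± 12.8 in WT and 52.8 ± 9.56 in Fmr1-KO (SD, n = 3 libraries each), or 30.8% of WT. This was a log2 fold-change of -1.70 (SE 0.08; edgeR adjusted P 2.82e-13). Reln made up 58.9% to 60.7% of the summed counts of the 9 genes in WT and 33.4% to 37.5% in Fmr1-KO. An antisense gene overlaps its exons by at most 125 bases and had no more than 6 counts in a library, and the counting was stranded.

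Ndnf encodes a secreted neurotrophic factor and lies on the plus strand of chromosome 6 from 65671590 to 65712326. It had 942, 811 and 749 counts in WT and 256, 256 and 475 in Fmr1-KO. The genotypes did not overlap, and Fmr1-KO replicate 3 stood above the other 2 libraries of its genotype. Its level in CPM was 24.7 ± 2.33 in WT and 9.96 ± 3.21 in Fmr1-KO (SD, n = 3 libraries each), which gave a log2 fold-change of -1.30 (SE 0.13; edgeR adjusted P 3.15e-08). Without Fmr1-KO replicate 3 the log2 fold-change was -1.61.

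Ebf3, a transcription factor of the COE family that is active in Cajal-Retzius cells, lies on the minus strand of chromosome 7 from 137193673 to 137314445. It had 123, 102 and 85 counts in WT and 40 in each of the Fmr1-KO libraries. All WT libraries held more than the Fmr1-KO libraries. Its level in CPM was 3.06 ± 0.497 in WT and 1.23 ± 0.0785 in Fmr1-KO (SD, n = 3 libraries each), which gave a log2 fold-change of -1.32 (SE 0.17; edgeR adjusted P 1.52e-06).

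Lhx1 and Lhx5 encode closely related LIM homeodomain factors, and Lhx5 acts in the formation of the cortical hem. Lhx1, on the minus strand of chromosome 11 from 84518284 to 84525535, had 29, 31 and 26 counts in WT and 12, 6 and 20 in Fmr1-KO. Lhx5, on the plus strand of chromosome 5 from 120431699 to 120441223, had 19, 24 and 23 counts in WT and 9, 5 and 12 in Fmr1-KO. For both genes the genotypes did not overlap, and the order of the Fmr1-KO libraries was the same, with replicate 3 highest and replicate 2 lowest. Lhx1 had a log2 fold-change of -1.13 (SE 0.31, edgeR adjusted P 0.00517), and Lhx5 one of -1.29 (SE 0.33, edgeR adjusted P 0.00305). Both passed the filter on low counts only through their WT libraries, where they were high, so these calls are descriptions. Leaving out 1 library at a time moved Lhx1 between -1.57 (without Fmr1-KO replicate 3) and -0.83 (without Fmr1-KO replicate 2), and Lhx5 between -1.54 and -1.06 without the same libraries. With so few counts the size of both changes was known less well than that of Reln.

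Trp73 encodes p73, a p53 family factor needed for the survival of Cajal-Retzius cells. It lies on the minus strand of chromosome 4 from 154056253 to 154140208. Its counts were 362, 275 and 281 in WT and 331, 325 and 391 in Fmr1-KO. The genotypes overlapped, since WT replicate 1 lay within the Fmr1-KO range in CPM. Levels were 9.05 ± 1.18 and 10.7 ± 0.532 CPM (SD, n = 3 per genotype), and the log2 fold-change of 0.24 (SE 0.09) passed the threshold narrowly (adjusted P 0.0371 by edgeR). The call was lost under DESeq2 (adjusted P 0.0987), with a fold change above 1.2 required, and without WT replicate 2 (0.18, adjusted P 0.143 by edgeR), WT replicate 3 (0.19, adjusted P 0.143), Fmr1-KO replicate 2 (0.24, adjusted P 0.0669) or Fmr1-KO replicate 3 (0.20, adjusted P 0.139). Without WT replicate 1, the highest of its genotype, the log2 fold-change was larger, at 0.35 (edgeR adjusted P 0.00449). No Fmr1-KO library was below the 2 lower WT libraries.

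Nr2f2 encodes COUP-TFII, a nuclear receptor, and lies on the minus strand of chromosome 7 from 70351944 to 70366735. It had 1136, 965 and 1113 counts in WT and 1113, 1057 and 1241 in Fmr1-KO. Scaled to CPM, levels were 31.7 ± 2.24 and 34.8 ± 0.760 (SD, n = 3 per genotype), with all Fmr1-KO libraries just above WT. Nr2f2 had a log2 fold-change of 0.13 (SE 0.05; edgeR adjusted P 0.0466). The call was lost under DESeq2 (adjusted P 0.110), with no filter on low counts (adjusted P 0.0535 by edgeR), with a fold change above 1.2 required, and when any library other than WT replicate 3 was left out. Without WT replicate 2 it was 0.08 on the log2 scale (edgeR adjusted P 0.255), the smallest of these 6 fits. A transcript on the opposite strand, B130024G19Rik, overlaps its exons by up to 643 bases and had 19 to 32 counts.

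Calb2 encodes calretinin, a calcium-binding protein used to stain Cajal-Retzius cells, and lies on the minus strand of chromosome 8 from 110137502 to 110168210. It had 1527, 1453 and 1481 counts in WT and 1276, 1117 and 1524 in Fmr1-KO. Its level was 44.1 ± 0.253 CPM in WT and 39.8 ± 3.69 CPM in Fmr1-KO (SD, n = 3 per genotype), and Fmr1-KO replicate 3, at 43.80 CPM, almost reached the lowest WT library at 43.93 CPM. This gave a log2 fold-change of -0.14 (SE 0.05; edgeR adjusted P 0.0338). The call was lost under DESeq2 (adjusted P 0.0607), with scaling by library totals (edgeR adjusted P 0.0830), with a fold change above 1.2 required, and when any library other than Fmr1-KO replicate 3 was left out. Without Fmr1-KO replicate 2 the log2 fold-change was -0.09, and without Fmr1-KO replicate 3 it was -0.22 (adjusted P 0.197 and 0.00164 by edgeR).

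Ebf2, a COE family factor related to Ebf3, lies on the plus strand of chromosome 14 from 67233292 to 67430918 and was the member left untested. It had 4, 4 and 3 counts in WT and 15, 16 and 5 in Fmr1-KO. The genotypes did not overlap, but 1 Fmr1-KO library was close to WT. When no filter was applied, edgeR gave a log2 fold-change of 1.73 (SE 0.50; adjusted P 0.00338). DESeq2 gave 1.78 and left the adjusted P undefined. Ebf2 passed the filter in 4 fits that left out a library, each of the WT libraries or Fmr1-KO replicate 3. It passed there only through Fmr1-KO replicates 1 and 2, where it was high. In these fits it was called higher, with log2 fold-changes from 1.61 to 2.14, and the calls are descriptions. The direction was opposite to that of Ebf3, on few counts.

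**Figure D2:**
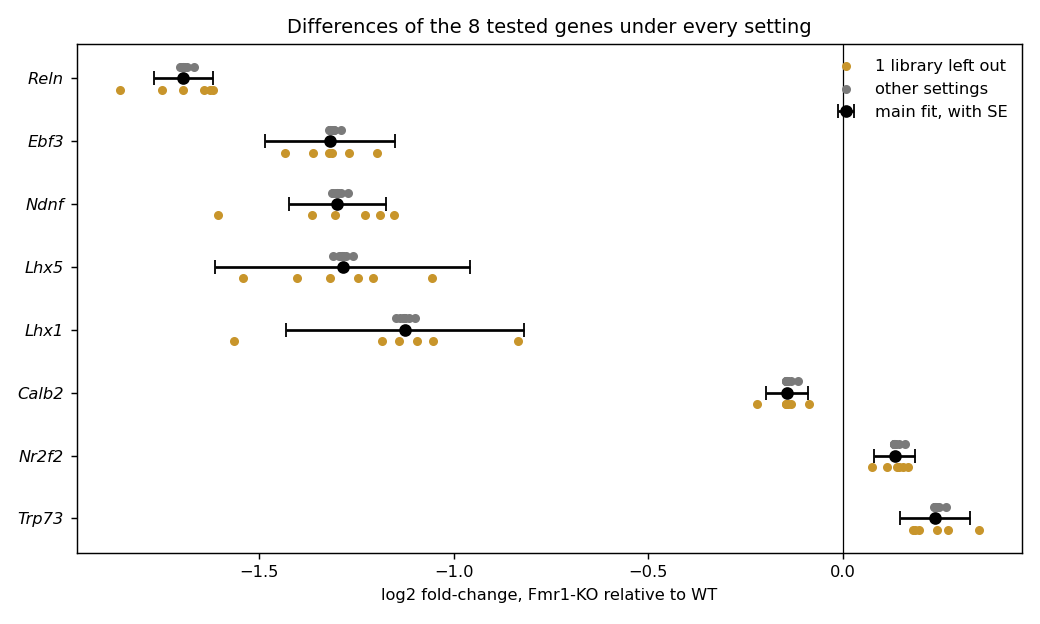
Log2 fold-changes (Fmr1-KO relative to WT) of the 8 tested genes, with the main fit and its SE in black, the 6 fits that leave out 1 library each in ochre and the other settings in grey. Reln stayed between -1.86 and -1.62 when a library was left out, and Calb2, Nr2f2 and Trp73 lay near 0 throughout.

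Levels were compared between genes per kilobase of merged exons. In WT, Calb2 was the highest at 25.3 ± 0.145 CPM per kilobase (SD, n = 3), followed by Reln (7.22), Nr2f2 (3.68), Ndnf (2.44), Trp73 (1.64), Ebf3 (0.331), Lhx5 (0.243), Lhx1 (0.209) and Ebf2 (0.0157). In this order only Lhx5 and Lhx1 had overlapping ranges of libraries. In Fmr1-KO, Calb2 was still the highest at 22.9 ± 2.12 CPM per kilobase (SD, n = 3). Reln moved below Nr2f2 (4.04), to 2.22 CPM per kilobase, where its range of libraries overlapped that of Trp73 (1.93). Ndnf followed at 0.985, below Trp73. The ranges of Ebf3, Lhx5, Lhx1 and Ebf2, from 0.133 down to 0.0543 CPM per kilobase, each overlapped the next in Fmr1-KO. The merged length counts the exons of every annotated transcript, 23738 bases for Reln and 1743 for Calb2, so genes with long rarely used exons appear lower per kilobase.

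The counts given above were also set as ratios within each library, where depth and scaling cancel. The ratio of Reln to Trp73 counts was 17.7, 19.1 and 20.3 in WT and 4.61, 4.48 and 5.68 in Fmr1-KO. The ratio of Ndnf to Trp73 counts was 2.60 to 2.95 in WT and 0.773 to 1.22 in Fmr1-KO. That of Ebf3 to Trp73 counts was 0.303 to 0.371 in WT and 0.102 to 0.123 in Fmr1-KO. No ratio overlapped between genotypes. The ratio of Reln to Ndnf counts, both of which fell, was 6.47 to 7.63 in WT and 4.67 to 5.97 in Fmr1-KO. These ratios restate the same counts, were chosen after the values were known and were not tested.

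**Figure D3:**
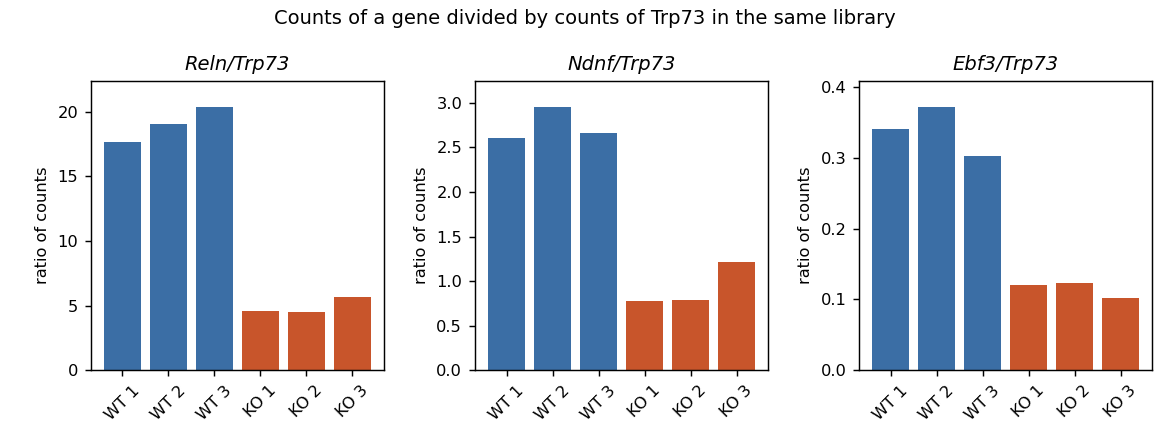
Counts of Reln, Ndnf and Ebf3 divided by the counts of Trp73 in the same library, 1 bar per library (KO stands for Fmr1-KO), with axes from 0. The ratio of Reln to Trp73 was at least 17.7 in WT and at most 5.68 in Fmr1-KO.

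The Fmr1-KO libraries did not spread in the same way for every member. Replicate 3 was the highest of its genotype for 7 of the 9 genes, by 1.35 times the mean of the other 2 libraries for Reln, 1.68 times for Ndnf, 2.04 times for Lhx1 and 1.57 times for Lhx5. For Ebf3 and Ebf2 it was the lowest, at 0.906 and 0.292 times. Without this library the log2 fold-change of Reln was -1.86 (adjusted P 2.01e-16 by edgeR) and that of Ebf3 -1.27 (adjusted P 1.76e-05).

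The genes through which reelin acts were counted next. For this and each later list, the counts stand beside 21.9% called lower and 20.7% higher over all genes tested. Of 24 pathway genes, all of them tested, 8 were lower, 3 were higher and 13 did not pass the threshold. The changes were small. Of the receptors, Vldlr fell from 166.8 ± 2.12 to 137.5 ± 1.19 CPM (log2 fold-change -0.28, adjusted P 1.76e-07 by edgeR), while Lrp8, which encodes APOER2, rose from 258.0 ± 3.20 to 277.2 ± 4.39 CPM (0.10, adjusted P 0.00655 by edgeR). Dab1, the adaptor that binds both receptors, did not pass the threshold (-0.05, adjusted P 0.183 by edgeR). Among kinases and adaptors that act with DAB1, Fyn fell by 0.38 on the log2 scale (adjusted P 4.92e-10 by edgeR) and Crk by 0.11 (adjusted P 0.00903), while Src (-0.07, adjusted P 0.158) and Crkl (0.06, adjusted P 0.214) did not pass. Pafah1b1, the lissencephaly gene LIS1, fell by 0.22 on the log2 scale (adjusted P 9.38e-07). The largest increase was that of Itga3, an integrin subunit linked to reelin (0.55, adjusted P 1.68e-08). Adamts2, Adamts3, Adamts4 and Adamts5, which encode extracellular proteases of a family that cleaves reelin, had log2 fold-changes from 0.03 to 0.16 and did not pass the threshold. All of these log2 fold-changes were smaller in size than that of Reln. With a fold change above 1.2 required, 1 pathway gene was called lower and 1 higher, against 7.89% and 5.2% of all genes tested.

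Of 13 other genes used by Cajal-Retzius cells or their sites of origin, 12 were tested, and 4 were lower and 7 higher. The largest decrease was that of Slc17a6, the vesicular glutamate transporter VGLUT2 (-0.56, adjusted P 1.68e-07 by edgeR). Cacna2d2, a calcium channel subunit, fell by 0.37 on the log2 scale (adjusted P 6.12e-05), Nhlh2, a bHLH factor, by 0.28 (adjusted P 0.0171) and Nectin1, an adhesion protein, by 0.26 (adjusted P 2.21e-05). Those that rose included Zic4 (0.82), Lmx1a (0.65), Zic1 (0.45), Cxcr4 (0.44), Tbr1 (0.21) and Zic2 (0.15). Zic4, Zic1, Zic2 and Lmx1a are transcription factor genes of the cortical hem, septum and choroid plexus as well. Ebf1 did not pass (-0.13, adjusted P 0.374 by edgeR), and Barhl2 had too few counts to be tested.

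Relatives of the members moved in both directions. Of 13 genes of the same families, 12 were tested, 3 were lower and 3 were higher, against 21.9% and 20.7% of all genes tested. Trp53 rose by 0.21 (adjusted P 5.14e-05 by edgeR), while Trp63 (-0.45, adjusted P 0.270) and Lhx2 (0.01, adjusted P 0.854) did not pass. Calb1, which encodes calbindin, fell from 5.23 ± 0.137 to 2.50 ± 0.187 CPM (-1.06, adjusted P 1.80e-07 by edgeR). Isl1, a LIM homeodomain gene, rose by 0.56 (adjusted P 2.94e-05).

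Genes of other cells that share these transcripts moved as well, and their part in the differences above was not tested. Of 22 GABAergic interneuron genes, all tested, 10 were lower and 7 higher, against 21.9% and 20.7% of all genes tested. The summed level of the list was 1560 to 1607 CPM in WT and 1611 to 1720 CPM in Fmr1-KO. Among those with a mean of 1 CPM or more, the largest decrease was that of Sst, which encodes somatostatin and fell from 43.6 ± 3.04 to 7.53 ± 0.612 CPM (-2.53, adjusted P 2.32e-16 by edgeR). Lamp5, which marks the neurogliaform interneurons that also use Reln and Ndnf, fell from 2.82 ± 0.282 to 0.519 ± 0.187 CPM (-2.43, adjusted P 9.04e-09 by edgeR). It was singled out after its value was seen, and so were Npy (-2.43) and Vip (-3.83). Vip had only 28 to 44 counts in WT and 0 to 4 in Fmr1-KO. Other genes of the list rose or changed less, among them Sp8 (0.32), Prox1 (0.06), Cnr1 (0.06), Adarb2 (-0.13) and Htr3a (-0.20). The synthetic enzymes Gad1 and Gad2 had log2 fold-changes of -0.24 and 0.17, the vesicular GABA transporter gene Slc32a1 -0.53, and Dlx2, a factor of immature interneurons, had the largest increase (0.59). All 4 passed the threshold by edgeR. Per 1000 summed counts of this list, Reln had 101.7 to 117.4 in WT and 28.8 to 37.1 in Fmr1-KO.

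A list of 10 genes covered the cortical hem, which gives rise to many Cajal-Retzius cells, and the choroid plexus. Of these genes 9 were tested, 8 were higher and 0 were lower. The list mixes genes of both, so its counts cannot be assigned to the hem. At an unadjusted P under 0.05 by edgeR there were also 0 lower, and DESeq2 called 0 lower. The summed level of this list, most of it from Ttr, ran from 1057 to 1116 CPM in WT and from 1464 to 1766 CPM in Fmr1-KO, without overlap. Ttr, which encodes transthyretin of choroid plexus epithelium, rose from 995.5 ± 30.3 to 1536 ± 159 CPM (0.63, adjusted P 1.14e-09 by edgeR), Folr1 rose by 0.65 (adjusted P 1.20e-07) and Wnt2b by 1.27 (adjusted P 9.05e-05). Kl did not pass (-0.07, adjusted P 0.802). Choroid plexus cells can hold Trp73 transcripts too, and their part in its level was not tested.

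The labelled cell type was checked against its markers. All 15 neuron genes were found, with a summed level of 6315 to 6462 CPM in WT and 5402 to 5653 CPM in Fmr1-KO, and 12 were lower and 2 higher, or 1 higher when Fmr1-KO replicate 3 or either of WT replicates 1 and 3 was left out. Rbfox3, Snap25 and Syt1 fell by 0.72, 0.63 and 0.84 on the log2 scale, Nefl fell most (-1.90) and Elavl4 rose most (0.41); all 5 passed the threshold by edgeR. Per 1000 summed counts of the neuron list, Reln had 24.5 to 29.0 in WT and 8.64 to 11.3 in Fmr1-KO, or 35.6% of the WT mean. Ndnf, Ebf3, Lhx1 and Lhx5 were between 46.2% and 51.5% of WT on this scale, while Calb2 had 105%, Nr2f2 127% and Trp73 137% of the WT mean. The largest parts of the sum were Dcx (1253 CPM in WT and 1326 in Fmr1-KO), Map2 (1185 and 1097) and Tubb3 (1093 and 899.3). The sum follows these genes more than less abundant ones that fell further, such as Nefl. Although ACSA2+ astrocytes are described as removed, astrocyte genes summed to 5836 to 5963 CPM in WT and 5206 to 5606 CPM in Fmr1-KO. Of 10 astrocyte genes, 5 were lower and 3 higher.

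The remaining lists were of other cells that the culture could hold, and their counts stand beside the same shares, 21.9% lower and 20.7% higher. Of 7 genes of olfactory bulb mitral and tufted cells, which use Reln and Lhx1, 2 were lower and 3 higher. Eomes and Tbr1, both higher, and Slc17a6, which was lower, also stand on other lists. Tbx21 was at 0.732 ± 0.332 and 0.533 ± 0.0497 CPM (adjusted P 0.247 by edgeR), and Cdhr1 fell from 1.68 ± 0.248 to 0.848 ± 0.254 CPM (adjusted P 0.000916 by edgeR). Of 14 excitatory cortical neuron genes 5 were lower and 6 higher, led by Nrgn (-2.72) and Foxp2 (0.38). Of 16 endothelial and mural genes 13 were tested, 5 were lower (3 without WT replicate 1) and 5 higher. The summed level of that list was 352.0 to 379.5 CPM in WT and 557.0 to 580.8 CPM in Fmr1-KO, without overlap. The largest parts of this sum were Acta2 and Tagln. Tagln rose from 83.11 ± 0.921 to 133.7 ± 1.18 CPM, while the median log2 fold-change of the list was -0.10. The part of these cells in the levels of the members was not tested. Acta2, smooth muscle actin, rose from 176.1 ± 8.33 to 322.0 ± 6.52 CPM, and Kdr, a VEGF receptor, had the largest increase (1.23) and Abcc9, a channel subunit of mural cells, the largest decrease (-1.14), all called by edgeR. The endothelial genes Pecam1, Cldn5 and Cdh5 averaged no more than 2.54 CPM in either genotype. Acta2 and Tagln were singled out after their values were seen. Of 12 meningeal fibroblast genes 5 were lower and 2 higher. All 12 genes of proliferating cells were higher, as were 6 of 7 tested genes of intermediate progenitors, and the part of this shift in the levels of the members was not tested. Of these, Mki67 rose by 1.09 and Eomes by 2.79 on the log2 scale.

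Against a median log2 fold-change of 0.01 over all genes, the lists had medians of -0.58 for neurons, 0.57 for the cortical hem and choroid plexus, 0.74 for intermediate progenitors, 0.66 for proliferating cells and 0.18 for the other genes used by Cajal-Retzius cells. The other lists lay between -0.11 and 0.05, and of these the medians for the reelin pathway, the family relatives, mitral and tufted cells, endothelial and mural cells and astrocytes changed sign under at least 1 alternative setting. The members' median was -1.21 on 8 genes, but -0.14 with the stricter filter, which removed Lhx1, Lhx5 and Ebf3 and under which the neuron list stood at -0.58.

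**Figure D4:**
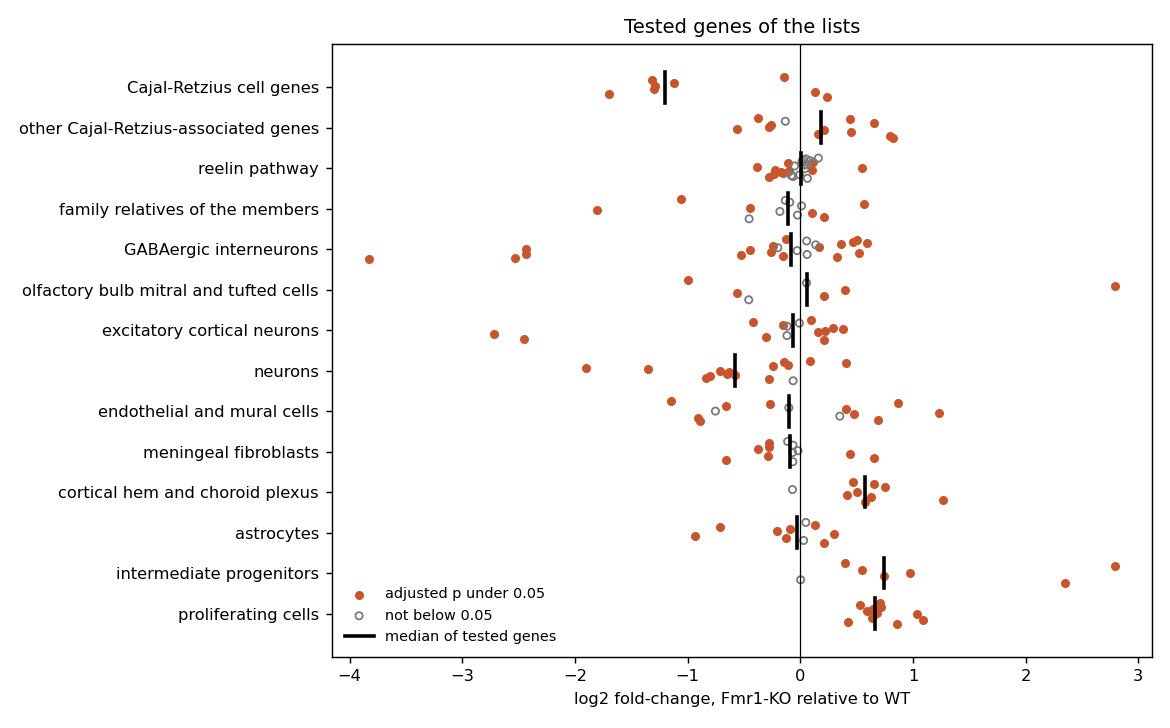
Log2 fold-changes (Fmr1-KO relative to WT) of the tested genes of each list, filled where the adjusted P was under 0.05 by edgeR, with the median of the list as a black bar. The Cajal-Retzius cell genes had a median of -1.21, and all 12 genes of proliferating cells lay above 0.

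The genes whose pattern over the 6 libraries lay nearest to that of Reln were sought among the 10762 other genes that averaged 10 CPM or more. Likeness was the root mean square difference of log2 CPM, each gene centred on its own mean. The nearest were Sprn (0.0947), Clec7a (0.1002), Cacna1i (0.110), Dync1i1 (0.114) and Kcnk9 (0.117), against a median of 0.872 over all these genes. Their log2 fold-changes ran from -1.74 for Kcnk9 to -1.52 for Cacna1i. Ndnf was the 19th nearest (0.222), while Calb2 (0.788) ranked 1939th and Nr2f2 (0.933) 8176th. With 6 libraries in 2 groups, this measure mostly reflects the difference between genotypes.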

How the data were processed

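RNA was measured in 6 libraries, 3 WT and 3 Fmr1-KO, with groups read from the labels. The deposited values are raw counts, 1 row per gene name. The authors' methods give single-end stranded reads, FastP trimming, STAR alignment to GRCm38.p6 and reverse-stranded featureCounts over exons, so isoforms are added together. Totals ran from 30348556 to 35126207 counts, a 1.16-fold range. 0 rows lacked a gene name.

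Counts were tested with edgeR 4.0.16 (R 4.3.3): filterByExpr (minimum count 10), TMM, then a 2-sided quasi-likelihood test (glmQLFit, glmQLFTest) on genotype alone, Benjamini-Hochberg adjustment over 16976 genes and a threshold of 0.05. SE is the log2 fold-change divided by the square root of F. The script was tested on simulated data. Alternatives were DESeq2 1.42.0, other normalizations and filters, a replicate block, a fit without the 20 genes of highest abundance, a required fold of 1.2 and leaving out each library. GENCODE M21 (GRCm38) supplied positions and exon lengths.

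The members and all gene lists were chosen with earlier results of these data known. Named genes are the members, Fmr1, reelin receptors and adaptors, the first 3 genes and the largest called changes (mean of at least 1 CPM) of each list, and the 5 genes nearest to Reln. Others were named after their values were seen. The value of 1 listed gene is not reported here.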

Additional observations from a re-analysis of the deposited data

How the results depend on the processing

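For the 8 tested members 117 values were recomputed. Of these, 95 stayed on their side of the threshold in the same direction, 22 lost the call and 0 reversed. The 22 all belonged to Trp73, Nr2f2 and Calb2. The 95 include all values of Lhx1 and Lhx5, which passed the main filter only through their WT libraries. Their calls are descriptions. The count of members called lower was 3 with a filter raised to a mean of 10 counts and of 5 CPM, which removed Lhx1, Lhx5 and Ebf3, and the median log2 fold-change of the members was then -0.14. Called higher were 0 members under DESeq2 and 0 with a minimum fold change of 1.2, where Reln, Ndnf, Ebf3, Lhx1 and Lhx5 remained lower. At that minimum, 1340 genes in all were lower and 883 higher, as a stricter test calls fewer genes. Across the 6 fits that each left out 1 library, 5 to 6 members were lower and 0 to 2 higher. Without Fmr1-KO replicate 2, 0 were higher. In 4 of these fits the filter let Ebf2 in, only through Fmr1-KO replicates 1 and 2, where it was high. It was called higher in all 4, and without WT replicate 2 and without Fmr1-KO replicate 3 it was the only member called higher. These calls of Ebf2 are descriptions. The cause of the other lost calls was not tested. The median ran from -1.27 to -0.95, and Fmr1 from -1.03 to -0.94. Of 585 values for the other lists, 554 stayed near the main value.

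Same-numbered libraries shared little of their deviation from the genotype means, with correlations of -0.0496, 0.0469 and 0.000739. These values cannot show whether samples were prepared in pairs, which the labels do not state. With a replicate block, 6 members were lower and 2 higher, Reln had a log2 fold-change of -1.70, and 3694 genes in all were lower and 3488 higher. The size of the change is the least certain for the members with few counts, Lhx1, Lhx5 and Ebf2. The call is the least certain for Trp73, Nr2f2 and Calb2.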
